A study of Mus musculus with 12 samples.

Results

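The genes studied here are Airn, Igf2r, Slc22a2 and Slc22a3, which form an imprinted cluster on mouse chromosome 17. They were chosen by gene symbol, and the cluster was picked because Airn was low in HP1αKO embryoid bodies (EBs), so that difference is described below and not tested. Of the 4 genes, 3 had a row with a single gene symbol on the array, among 19938 genes in all, and 2 of them, Airn and Igf2r, exceeded the signal floor of the study (45, or 5.49 on the log2 scale) on at least 1 array. Slc22a3 is named only and was not analysed here. Each of the other 3 had 1 row, so no choice between rows was needed.

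Igf2r encodes the cation-independent mannose 6-phosphate receptor, which carries newly made lysosomal enzymes to the lysosome and takes up the growth factor Igf2 for degradation. Airn is a long noncoding RNA transcribed from within Igf2r on the opposite strand. In most mouse tissues it is made from the paternal chromosome, where it silences Igf2r in cis, and in the placenta it also silences Slc22a2 and Slc22a3, which encode organic cation transporters. In ESCs Airn is little expressed and both copies of Igf2r are active, and paternal silencing follows as the cells differentiate. An array signal sums both chromosomes, so no value below separates the alleles. The strand that each row reads is not stated either, and where the transcripts overlap the signals of Airn and Igf2r may not be fully separate.

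Expression had been profiled on 12 arrays, of which 6 held mouse embryonic stem cells (ESCs) and 6 held day 7 EBs, aggregates of differentiating cells. Each state held WT cells (label HM1), HP1αKO cells (genotype Cbx5-/-, HP1alpha, label R1) and HP1βKO cells (genotype Cbx1-/-, HP1beta, label R1), with 2 arrays per group and no treatment. All ESCs were grown on mitomycin-treated fibroblast feeders and sorted for SSEA1, and the EBs were grown in suspension without LIF. HP1α and HP1β are chromodomain proteins that bind histone H3 methylated at lysine 9 in heterochromatin. WT and the knockouts carry different line labels, so genotype and line cannot be told apart in any knockout against WT comparison, although the study's methods call HM1 a littermate control. Labels call the replicates biological, but the sources used here do not say whether they came from separate cultures, and p-values then measure only the spread between these arrays.

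The targeted gene Cbx1 was low in all 4 HP1βKO libraries. In EB HP1αKO the signal of Cbx5 was 9.20 and 9.21 on the log2 scale, against 10.36 and 10.40 in EB WT. In ESCs Cbx5 went against 2 labels, as its signal was 8.29 in ESC WT 2, against 9.66 in ESC WT 1, and 10.00 in ESC HP1αKO 2, against 8.04 in ESC HP1αKO 1. Airn and Igf2r results that rest on these 2 libraries are given with and without them, and for the gene lists below the genes that lost their call without them are named. The pluripotency markers Pou5f1, Nanog, Zfp42, Esrrb, Nr0b1 and Tdgf1 were above the floor in every ESC group, and their summed signal was between 13.13 and 13.67 (log2) in ESCs against 9.22 to 10.59 in EBs. Over the 10880 genes above the floor, the difference between replicates had an SD of 0.39 to 0.57 in the ESC groups and of 0.13 to 0.20 in the EB groups, so the ESC replicates were further apart.

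The windows around the start sites of Airn and Igf2r, the pair with signal above the floor, are shown because both transcripts are read from the same stretch of chromosome 17 in opposite directions. In the RefSeq annotation (GRCm38.p6) the Airn start lies inside Igf2r, 28395 bases from the Igf2r start. Each window runs from 250 bases before to 50 bases after the start, 5′ to 3′ on the strand of the gene, and capitals mark CG dinucleotides, the bases whose methylation carries an imprint. The Airn window is chr17:12741061-12741360 on the plus strand and the Igf2r window is chr17:12769657-12769956 on the minus strand.
Airn: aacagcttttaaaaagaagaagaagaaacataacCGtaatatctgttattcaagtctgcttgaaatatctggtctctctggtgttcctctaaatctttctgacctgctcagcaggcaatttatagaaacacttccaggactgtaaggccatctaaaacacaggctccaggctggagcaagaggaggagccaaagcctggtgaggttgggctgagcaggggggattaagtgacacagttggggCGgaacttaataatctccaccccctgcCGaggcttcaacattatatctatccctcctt
Igf2r: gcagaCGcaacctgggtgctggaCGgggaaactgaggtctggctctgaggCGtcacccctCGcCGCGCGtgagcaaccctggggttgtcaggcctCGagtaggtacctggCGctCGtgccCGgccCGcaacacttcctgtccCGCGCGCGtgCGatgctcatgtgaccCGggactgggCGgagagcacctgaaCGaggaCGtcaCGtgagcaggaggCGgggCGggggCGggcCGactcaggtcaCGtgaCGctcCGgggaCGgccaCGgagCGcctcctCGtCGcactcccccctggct
The Airn window held 3 CG dinucleotides at 45.7% GC, and 23.3% of 32851 RefSeq promoter windows of this length held fewer. The Igf2r window held 34 at 70.7% GC, and 92.3% of windows held fewer. Searched on both strands, the GC box GGGCGG matched 1 time in the Airn window and 3 times in the Igf2r window, against 35.7% of all windows with a match, and each such match contains a CG. The E-box CACGTG, which also contains a CG, matched 2 times in the Igf2r window (7.15% of all windows hold it) and had no match in the Airn window. The TATA box TATAAA matched 1 time in the Airn window only (13.6% of all windows hold it), and CCAAT was in neither (37.4% of all windows hold it). These matches describe the letters of the windows and are not binding sites shown by these data.

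Airn, the silencing RNA, was near background in ESCs and appeared in EBs to an extent that differed with genotype. Its log2 signal was 3.47 and 3.37 in ESC WT, 3.19 and 3.37 in ESC HP1αKO, and 3.99 and 3.92 in ESC HP1βKO, all under the floor. In EBs it was 7.07 and 7.20 in WT, 6.43 and 5.95 in HP1βKO, and 4.50 and 4.68 in HP1αKO. EB HP1αKO stayed under the floor on both arrays. EB WT was thus above EB HP1βKO, and the levels of the other 4 groups, all under the floor, were not ranked.

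Igf2r, the receptor, was expressed in every group and was higher in EBs than in ESCs. Its log2 signal was 7.98 and 8.48 in ESC WT, 8.16 and 8.65 in ESC HP1αKO, and 8.39 and 8.25 in ESC HP1βKO, and these groups overlapped. In EBs it was 10.24 and 10.20 in WT, 11.04 and 11.15 in HP1αKO, and 10.87 and 10.90 in HP1βKO. Every EB array lay above every ESC array, and WT was the lowest of the EB groups. The share of all genes whose groups of 2 arrays separate in this way was not counted, so nothing is read from it. In ESCs the libraries numbered 2 of WT and HP1αKO, whose Cbx5 opposed their labels, were the highest for Igf2r, above both HP1βKO libraries.

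Slc22a2, which encodes an organic cation transporter, lay between 3.15 and 3.62 on all 12 arrays, under the floor throughout. Its highest values were in EB HP1βKO (3.52 and 3.62), and its largest difference between the groups compared was 0.36 on the log2 scale, between EB HP1βKO and ESC HP1βKO. These are differences between signals close to background, and no fold change is given for them.

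**Figure D1:**
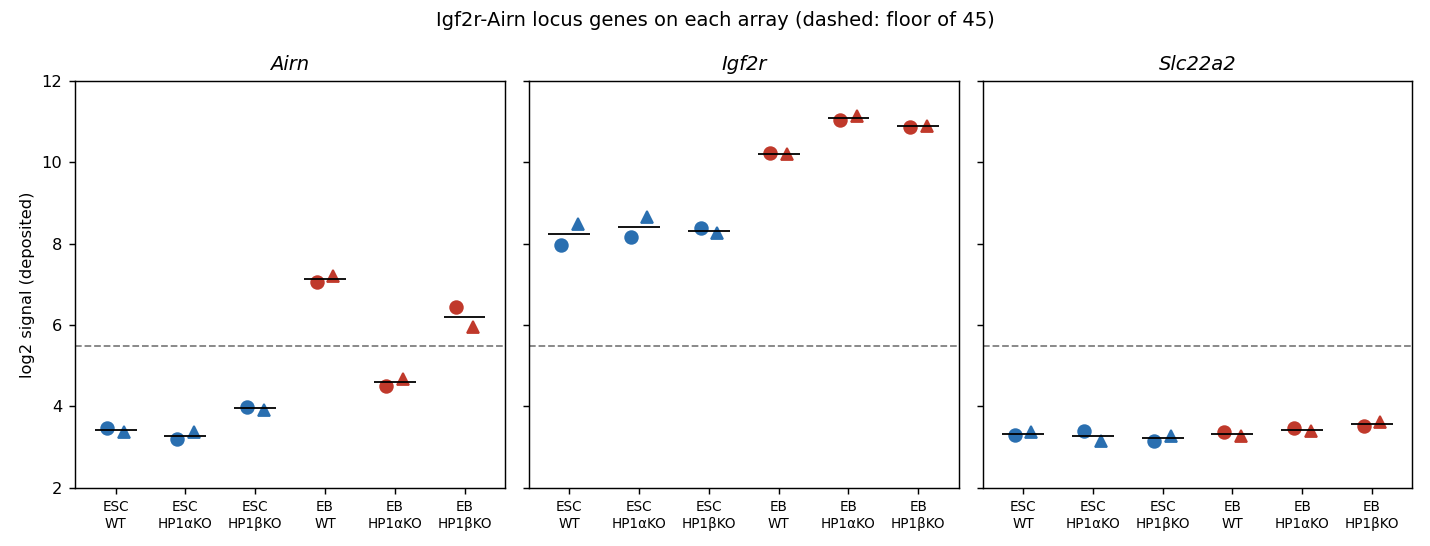
Deposited log2 signal (vertical axis) of Airn, Igf2r and Slc22a2 on each of the 12 arrays, by group; circles are replicate 1, triangles replicate 2, blue ESC, red EB, black lines group means, and the dashed line the floor of 45 (5.49). Airn crosses the floor only in EB WT and EB HP1βKO, Igf2r is lowest in EB WT among the EBs, and Slc22a2 stays between 3.15 and 3.62.

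EBs were first set against ESCs of the same genotype, to describe how the locus changed with differentiation. Igf2r rose in all 3 genotypes: by 1.99 ± 0.20 on the log2 scale in WT (limma's standard error, n = 2 arrays per group; 3.97-fold, adjusted p = 0.000109), by 2.69 ± 0.20 in HP1αKO (6.46-fold, adjusted p = 1.29e-05) and by 2.56 ± 0.20 in HP1βKO (5.91-fold, adjusted p = 2.34e-05). All limma p-values here are two-sided and adjusted over the 10880 genes by the Benjamini-Hochberg method. Differences between states were common on these arrays: 36.2% of the genes tested passed in WT (22.0% higher in EBs), 41.6% in HP1αKO (25.0% higher) and 37.1% in HP1βKO (22.0% higher). With the 2 doubted ESC libraries left out, the Igf2r difference was 2.24 ± 0.12 in WT (adjusted p = 1.85e-05) and 2.94 ± 0.12 in HP1αKO (adjusted p = 3.84e-06).

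In EB HP1βKO the Airn mean was 6.19, against a measured mean of 3.95 in ESC HP1βKO. As ESC HP1βKO was under the floor, this is at least 1.63-fold, the EB mean set against the floor. Airn met the floor only through the EB WT and EB HP1βKO arrays, where it was high, so it had to differ from ESCs and no p-value is given. In WT the Airn mean was 7.13 in EBs and 3.42 in ESCs, at least 3.12-fold against the floor, and in HP1αKO both means (4.59 and 3.28) were under the floor. No test is given for these values either, since the EB WT and EB HP1αKO libraries were those by which the genes were picked. Centring each array on its median shifted the median of all genes by -0.13 in each EB against ESC comparison, and lowered the share of called genes that were higher in EBs, to 46.2% from 60.7% in WT, to 46.3% from 60.2% in HP1αKO and to 44.99% from 59.2% in HP1βKO. Igf2r and Airn stayed higher in EBs under it.

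The comparison of EB HP1βKO and EB WT addressed how the locus differed in differentiated cells without HP1β. Igf2r was 0.67 ± 0.20 higher (means 10.89 and 10.22, 1.59-fold), with all 4 pairs of arrays between 0.63 and 0.71. In the fit on all 12 arrays this did not pass (limma, adjusted p = 0.14), and 3.24% of genes passed (1.63% higher and 1.62% lower). With the 6 EB arrays alone the same difference had an error of ± 0.08 and passed (adjusted p = 0.00159), in a fit in which 18.8% of genes passed, and without the 2 doubted ESC libraries it passed too (adjusted p = 0.00603, with 8.93% of genes passing). Airn ran the other way: it was 0.94 ± 0.17 lower in EB HP1βKO (means 6.19 and 7.13, 1.92-fold), with the 4 pairs between -1.25 and -0.63, given without a test since the EB WT libraries served to pick the genes.

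In EB HP1αKO against EB WT, the comparison that served to pick the cluster, the 4 pairs of arrays differed by -2.70 to -2.39 for Airn. Because EB HP1αKO was under the floor, Airn was at least 3.12-fold lower there. Igf2r differed by 0.88 ± 0.20 (means 11.10 and 10.22, 1.84-fold), with the 4 pairs between 0.80 and 0.95. In this comparison 1.24% of all genes passed, and nothing is read from the members' place among them. Both knockout comparisons share the EB WT libraries. In the EB groups Igf2r was lowest in WT, where Airn was highest, and how their levels relate was not tested. As the whole EB was measured, fewer cells that express a gene and less of its RNA per cell cannot be told apart.

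**Figure D2:**
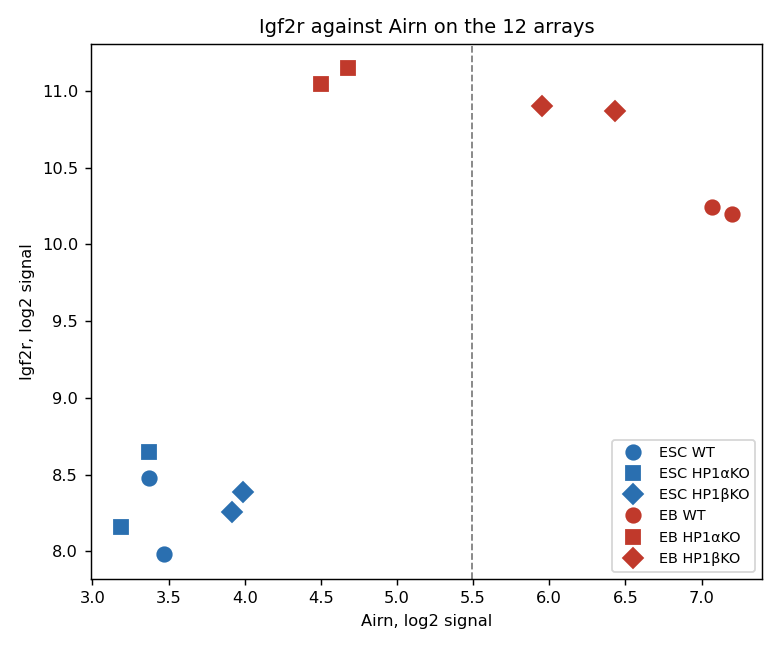
Log2 signal of Igf2r (vertical axis) against that of Airn (horizontal axis) on the 12 arrays; circles are WT, squares HP1αKO, diamonds HP1βKO, blue ESC, red EB, and the dashed line the floor for Airn (5.49). The 6 ESC arrays lie at Airn values of 3.19 to 3.99 and Igf2r values of 7.98 to 8.65. The EB arrays of both knockouts lie at lower Airn and higher Igf2r than those of EB WT. The cluster was picked by the Airn values of EB WT and EB HP1αKO, and how the levels of Airn and Igf2r relate was not tested.

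EB HP1βKO and EB HP1αKO, which carry the same line label, were set against each other as well. Igf2r was 0.21 ± 0.20 lower in HP1βKO and did not pass (limma, adjusted p = 0.779, where 3.73% of genes passed, with 2.45% lower), nor on the 6 EB arrays alone (± 0.08, adjusted p = 0.127). Airn was 1.60 ± 0.17 higher in HP1βKO, at least 1.63-fold against the floor, with no test for the reason given above. The difference of the HP1βKO effect on Igf2r between states was 0.57 ± 0.28 (adjusted p = 0.503), where 1.30% of genes passed (0.616% higher and 0.680% lower), so a larger difference from WT in EBs than in ESCs was not shown. Without the 2 doubted ESC libraries it was 0.33 ± 0.16 (adjusted p = 0.301). For the HP1αKO effect, where 0.230% of genes passed (0.0551% with a lower value), it was 0.70 for Igf2r, given without a test. The same differences for Airn are built from ESC signals under the floor and are not resolved.

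In ESCs no difference of Igf2r between genotypes passed. For Igf2r, HP1αKO differed from WT by 0.18 ± 0.20 (adjusted p = 1.00), HP1βKO from WT by 0.09 ± 0.20 (adjusted p = 0.985) and HP1βKO from HP1αKO by -0.08 ± 0.20 (adjusted p = 0.994). Without the 2 doubted libraries these were 0.18 ± 0.14 (adjusted p = 0.555), 0.34 ± 0.12 (adjusted p = 0.217) and 0.16 ± 0.12 (adjusted p = 0.674). The last of them changed sign, and each rests on 1 library in WT or HP1αKO that is assumed to vary like the other groups. Airn was under the floor on every ESC array, so its differences between ESC groups are not resolved and no p-value is given. Its measured mean in ESC HP1βKO differed from WT by 0.53 ± 0.17 and from HP1αKO by 0.67 ± 0.17. Between ESC HP1αKO and ESC WT it differed by -0.14 ± 0.17. Without the doubted libraries these 3 Airn differences were 0.48, 0.76 and -0.28. With limma, 0% of genes passed in either knockout against WT in ESCs (0 genes, with 116 at an unadjusted p under 0.05 for HP1αKO and 638 for HP1βKO) and 0.00919% between the knockouts.

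**Figure D3:**
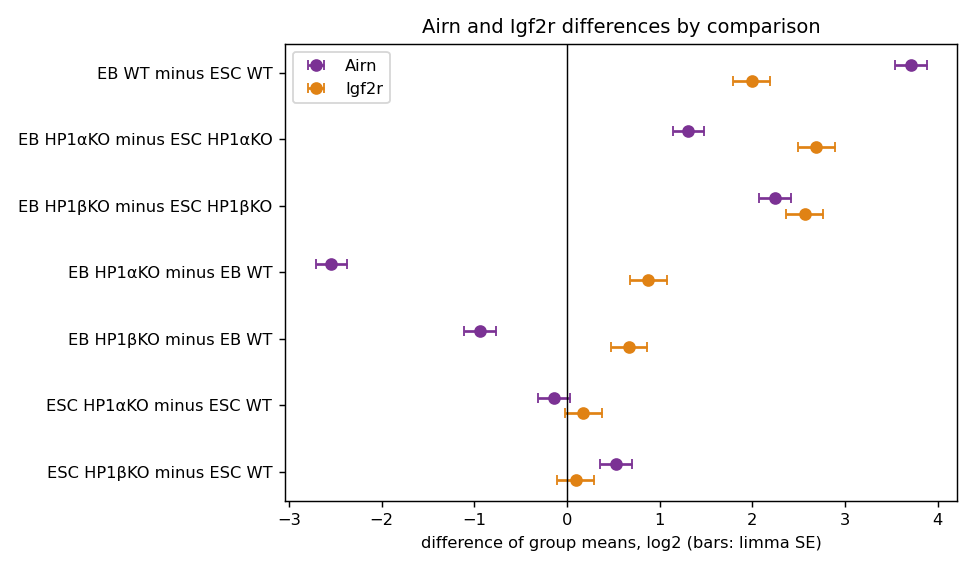
Difference of group means (log2, horizontal axis) for Airn (purple) and Igf2r (orange) in 7 comparisons; bars show the standard error from limma (n = 2 arrays a group). Igf2r differs by 1.99 to 2.69 between EBs and ESCs, and Airn and Igf2r lie on opposite sides of 0 in both EB knockout comparisons (-2.54 and 0.88 for HP1αKO, -0.94 and 0.67 for HP1βKO), with Airn under the floor in ESCs and in EB HP1αKO.

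Markers of the cell types that an EB can hold differed between the EB groups along with Airn and Igf2r, and their part in these differences was not tested. Values are the log2 of the summed signal of each list. The 5 cardiomyocyte markers lay at 12.36 and 12.51 in EB WT, 13.40 and 13.41 in EB HP1αKO and 9.18 and 9.76 in EB HP1βKO, with none under the floor. The 8 visceral endoderm markers lay between 11.24 and 11.46 in WT, 10.68 and 10.77 in HP1αKO, and 11.28 and 11.58 in HP1βKO, with 2 under the floor in each group. The 5 endothelial and blood markers lay between 11.90 and 12.06, 11.39 and 11.52, and 11.60 and 11.79 in WT, HP1αKO and HP1βKO, with none under the floor. Airn, and the visceral endoderm, endothelial and blood, trophoblast and pluripotency lists, had their lowest EB values in HP1αKO. The cardiomyocyte and neural lists were lowest in HP1βKO, and the fibroblast list in WT. Of 6 visceral endoderm markers tested in EB HP1αKO against EB WT, 1 passed as higher and 2 as lower (limma), where 1.24% of all genes passed. In the same comparison 2 of 5 cardiomyocyte markers passed as higher. There 1 of 6 pluripotency, 1 of 5 endothelial and blood and 1 of 3 trophoblast markers passed as lower, and 0 of 4 neural markers passed. For trophoblast, in which the imprinting of Slc22a2 is known, 5 of 7 markers were on the array. In each group 3 of the 5 were under the floor, but not the same ones throughout. Of the 5, 3 exceeded the floor on at least 1 array. The list lay between 8.66 and 8.98 in WT, 7.76 and 8.04 in HP1αKO and 8.56 and 8.91 in HP1βKO. The 8 fibroblast markers, listed for the feeders, lay between 11.83 and 11.94 in EB WT, with 1 under the floor in each EB group. Their summed signal lay higher in both knockouts (12.57 and 12.66 in HP1αKO, 12.75 and 12.86 in HP1βKO). Against EB WT, 1 of the 8 passed as higher in HP1αKO and 0 passed in HP1βKO (limma). In ESCs, which were grown on feeders, this list lay lower, between 10.46 and 11.27. In EBs, grown in suspension, it is therefore not read as a measure of feeder cells. The 6 pluripotency markers lay between 9.52 and 9.76, 9.22 and 9.33, and 10.36 and 10.59, and the 4 neural markers between 8.61 and 8.78, 8.44 and 8.50, and 7.23 and 7.27, in WT, HP1αKO and HP1βKO. Under the floor were 3, 3 and 0 of the pluripotency markers and 1, 0 and 2 of the neural markers in these groups. In EB HP1βKO against EB WT 4 of 5 cardiomyocyte and 3 of 4 neural markers passed as lower (limma). There 3 of 6 pluripotency and 1 of 6 visceral endoderm markers passed as higher. Of the rest, 1 of 5 endothelial and blood markers passed as lower and 0 of 3 trophoblast markers passed. Over all genes 3.24% passed in that comparison.

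The genes on either side of Igf2r were read next: the 12 nearest with a single-symbol row on each side in RefSeq order, apart from the members. Of these 24, 10 were tested, and none passed in EB HP1βKO against EB WT, where 3.24% of all genes passed (median difference -0.10, against -0.01 over all genes). Plg, which encodes plasminogen and precedes the cluster, stayed under the floor at 3.33 to 4.11, and so did Mas1, a receptor gene just after it, at 2.99 to 3.37. In EB WT against ESC WT 1 neighbour rose, Qk, an RNA-binding protein gene (0.72 ± 0.21, adjusted p = 0.0242), and 3 fell: Pnldc1 (-2.51 ± 0.42, to a mean under the floor), a nuclease of piRNA processing, Sod2 (-1.13 ± 0.20), the mitochondrial superoxide dismutase, and Sft2d1 (-0.50 ± 0.14). The median difference was -0.19, against 0.05 over all genes. Set against the floor, Pnldc1 was at least 3.34-fold lower. Pnldc1 and Sod2 fell in HP1αKO (-3.05 and -1.13) and in HP1βKO (-2.02 and -1.03) too. Counts were 1 higher (Qk) and 3 lower (with Snora20, a small nucleolar RNA) in HP1αKO, and 1 higher (Agpat4, an acyltransferase gene) and 4 lower (with Snora20 and Mrpl18, a mitochondrial ribosomal protein gene) in HP1βKO. The shares that passed were 40%, 40% and 50% in WT, HP1αKO and HP1βKO, against 36.2%, 41.6% and 37.1% of all genes. With 10 genes tested, the counts are not a result about the neighbours. The 4 calls in WT became 2 without EB WT 1 or EB WT 2, the 4 in HP1αKO became 2 without either EB HP1αKO library and 7 with centred arrays, and the 5 in HP1βKO became 2 without ESC HP1βKO 2 or either EB HP1βKO library.

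The ligand of Igf2r rose from ESCs to EBs in all 3 genotypes, as did part of the other IGF genes. Igf2, the imprinted growth factor that Igf2r clears, lay between 6.21 and 7.42 in ESCs, at 11.53 and 11.58 in EB WT, 12.18 and 12.12 in EB HP1αKO and 12.36 and 12.25 in EB HP1βKO. It rose by 4.92 ± 0.31 in WT (adjusted p = 5.66e-06), 5.64 ± 0.31 in HP1αKO and 5.32 ± 0.31 in HP1βKO. Of 14 IGF ligands, receptors and binding proteins (the mRNA-binding Igf2bp genes included) 11 were tested, of which 7 rose and 2 fell in WT, 7 and 1 in HP1αKO, and 6 and 1 in HP1βKO, with medians of 1.14, 1.01 and 0.85 against 0.05, 0.05 and 0.04 over all genes. That is 81.8%, 72.7% and 63.6% of those tested, against the 36.2%, 41.6% and 37.1% of all genes given above. The binding protein genes Igfbp5 (4.55, from a mean under the floor, and at least 10.5-fold against it) and Igfbp4 (2.95) and the receptor genes Insr (1.27) and Igf1r (1.14) were among those that rose in WT, and Igfbp2 (-0.94) and Igfbp3 (-1.92) fell. Without the 2 doubted ESC libraries the calls in WT and HP1αKO held, with Igf2 at 4.49 ± 0.30 in WT and 5.57 ± 0.30 in HP1αKO, and Insr in HP1αKO moved to 1.52 from 1.01.

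Among these genes 2 fell and none rose in EB HP1βKO against EB WT. The 2 were the binding protein gene Igfbp2 (-0.86 ± 0.16, adjusted p = 0.0226) and Igf1 (-0.84 ± 0.14, adjusted p = 0.0117). The EB HP1βKO mean of Igf1 was under the floor. Of the 11 tested 18.2% thus passed, against 3.24% of all genes. With any EB WT or EB HP1βKO library left out fewer of these genes passed, and so did fewer of all genes. Without both doubted ESC libraries more of these genes passed, and so did more of all genes. Igf2 differed by 0.75 ± 0.31 (adjusted p = 0.345) and Igf1r by -0.73 ± 0.19 (adjusted p = 0.0927). On the 6 EB arrays alone 9 of the 11 passed, in a fit in which 18.8% of all genes passed. In EB HP1αKO against EB WT, Igfbp5 alone passed among them (1.18 ± 0.21, adjusted p = 0.0285), and none did without either EB WT, EB HP1αKO or EB HP1βKO library or with centred arrays, while 2 did without ESC WT 1 or ESC WT 2. Igf2 differed there by 0.59 (adjusted p = 0.698), and 1.24% of all genes passed in the fit on all 12 arrays.

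Lysosomal enzymes are the cargo that Igf2r sorts by its mannose 6-phosphate tag. Of 28 such genes 24 were tested: 11 rose and 1 fell in WT, 12 and 1 in HP1αKO, and 14 and 0 in HP1βKO, with medians of 0.43, 0.60 and 0.66. The shares that passed from ESCs to EBs were 50%, 54.2% and 58.3%, against 36.2%, 41.6% and 37.1% of all genes. In WT the largest rises were in Lipa (1.49 ± 0.17, adjusted p = 0.000287), the acid lipase, Smpd1 (1.35 ± 0.23), the acid sphingomyelinase, and Naglu (1.28 ± 0.34), a glucosaminidase, and Glb1, the acid galactosidase, fell (-0.64 ± 0.17). Fewer than the 12 in WT passed without ESC WT 2 or either EB WT library, and fewer than the 14 in HP1βKO without EB HP1βKO 1. Fewer of all genes passed in those settings as well. More than the 13 in HP1αKO passed without the 2 doubted ESC libraries, and so did more of all genes. In WT, Ctsl (0.70, then 0.46, adjusted p = 0.096) and Ppt1 (0.56, then 0.36, adjusted p = 0.103) lost their calls without those libraries, and Lipa (1.36 ± 0.19), Smpd1 (1.14), Naglu (1.16) and Glb1 (-0.46) kept theirs. Between EB HP1βKO and EB WT none of the 24 passed (median 0.15), where 3.24% of all genes passed. On the 6 EB arrays alone 7 did, in a fit in which 18.8% of all genes passed.

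Of 16 genes of mannose 6-phosphate tagging and receptor sorting 15 were tested. In WT 3 rose from ESCs to EBs, the adaptor subunits Ap1m1 (0.79 ± 0.24) and Ap1g1 (0.63 ± 0.17) and the sorting nexin Snx1 (0.70 ± 0.20), and Gnptab, a subunit of the enzyme that makes the tag, fell (-0.80 ± 0.23), for a median of -0.01. The share that passed, 26.7%, lay below the 36.2% of all genes, and it was 33.3% against 41.6% in HP1αKO and 26.7% against 37.1% in HP1βKO. Gnptab fell in HP1αKO (-1.07) and HP1βKO (-1.02) too. There were 3 higher and 2 lower in HP1αKO and 3 higher and 1 lower in HP1βKO. None passed between EB HP1βKO and EB WT, where 3.24% of all genes passed. The 4 calls in WT became 0 without ESC WT 2, 1 without EB WT 1, 0 without EB WT 2 and 1 without the 2 doubted ESC libraries, when Ap1m1 (0.47, adjusted p = 0.0415) stayed and Ap1g1 (0.44, adjusted p = 0.0549), Snx1 (0.46, adjusted p = 0.0893) and Gnptab (-0.57, adjusted p = 0.106) did not pass. In HP1αKO Rab9 (-0.45, then -0.35, adjusted p = 0.107) lost its call in that setting. The 5 calls in HP1αKO became 3 without either EB WT or either EB HP1αKO library, and the 4 in HP1βKO became 2 without ESC HP1βKO 2 or EB HP1βKO 2.

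**Figure D4:**
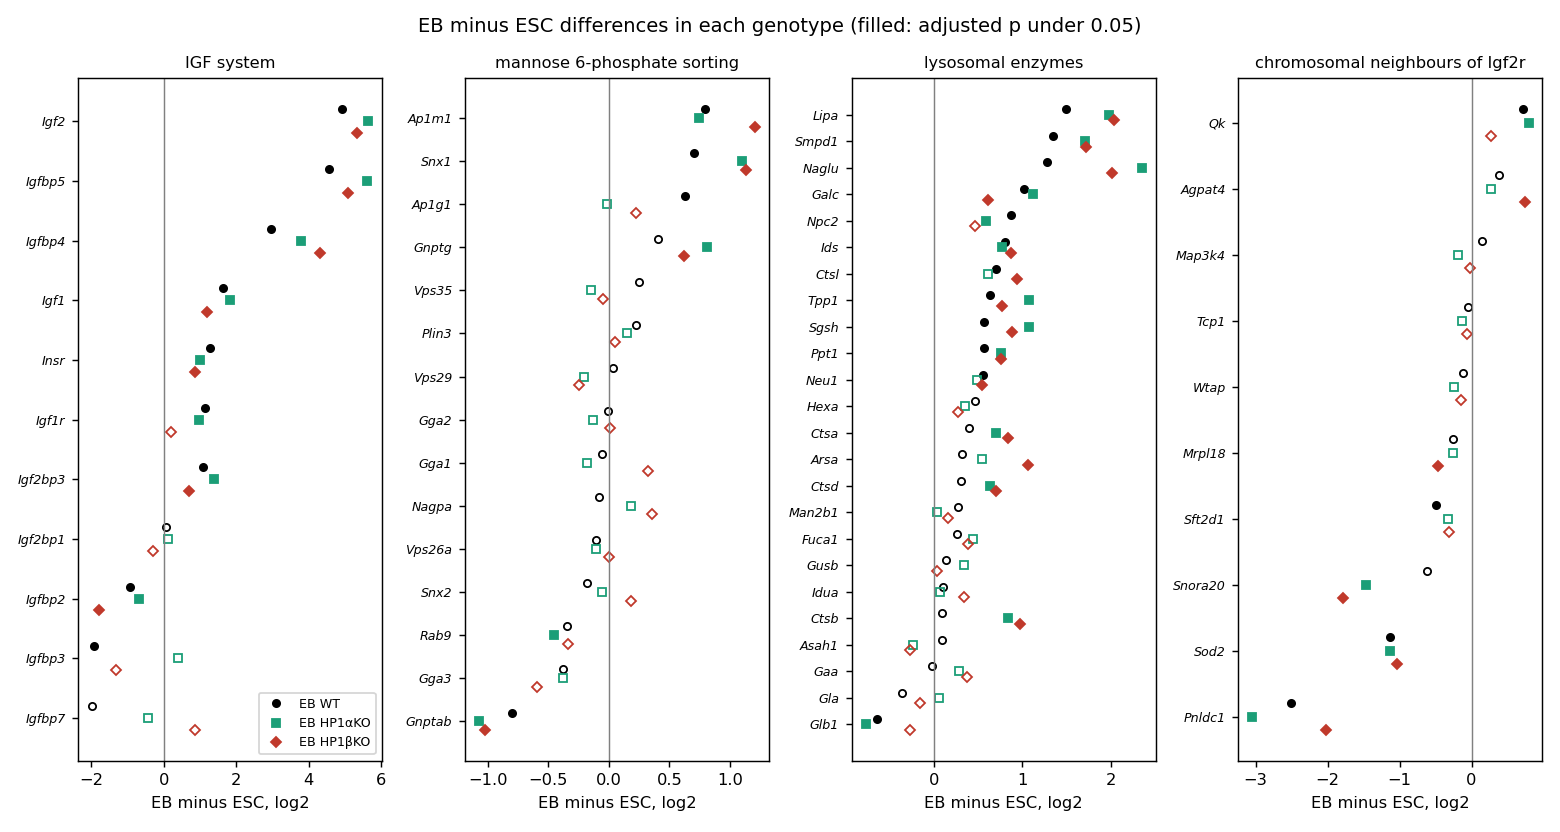
Difference of EB and ESC means (log2, horizontal axis) for the tested genes of 4 lists in WT (black circles), HP1αKO (green squares) and HP1βKO (red diamonds); filled symbols passed limma's test at an adjusted p under 0.05, and each panel has its own scale. Igf2 rises by 4.92 to 5.64 and Lipa by 1.49 to 2.03, while Gnptab, Pnldc1 and Sod2 fall in all 3 genotypes.

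All 17 genes on a list of factors that keep imprints or silence chromatin were tested between ESCs and EBs, and in WT 6 fell and 1 rose (median -0.03). At 41.2% in WT, 47.1% in HP1αKO and 35.3% in HP1βKO, the shares that passed lay close to the 36.2%, 41.6% and 37.1% of all genes, so the counts are not a result about the list. Dnmt3l, a cofactor of de novo DNA methylation, changed by -4.19 ± 0.27 on the log2 scale (adjusted p = 8.21e-06) to a mean under the floor, at least 11.8-fold lower, and Zfp57, which protects methylated imprints, by -2.12 ± 0.42 (adjusted p = 0.00466). Dppa3 (-2.04, also to a mean under the floor), Dnmt3b (-1.97), the Polycomb gene Eed (-1.27) and Trim28 (-0.58), the partner of Zfp57, fell too, and the Polycomb gene Ring1 rose (0.43). Without the 2 doubted ESC libraries Trim28 (-0.39, adjusted p = 0.121) and Ring1 (0.39, adjusted p = 0.0509) did not pass in WT, while Zfp57 (-1.43 ± 0.35), Dppa3 (-1.32), Dnmt3b (-2.39) and Eed (-1.18) did. In HP1αKO 7 fell and 1 rose, and in HP1βKO 4 fell and 2 rose, of which the second was Ehmt2 (0.49), an H3K9 methyltransferase. The 8 calls in HP1αKO became 5 without EB HP1αKO 1, and the 6 in HP1βKO became 3 without either EB HP1βKO library. None passed between EB HP1βKO and EB WT, where 3.24% of all genes passed. On the 6 EB arrays alone 3 of the 17 did, in a fit in which 18.8% of all genes passed, so this count is not a result about the list either.

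Of 6 other organic cation transporters 3 were tested, and none passed in HP1βKO between states, where 37.1% of all genes passed. In WT and in HP1αKO 1 passed, or 33.3% each, against 36.2% and 41.6% of all genes, so the counts are not a result about the list. Slc47a1 fell in EB WT against ESC WT (-1.20 ± 0.32, adjusted p = 0.0169) and Slc29a4 in EB HP1αKO against ESC HP1αKO (-0.66 ± 0.18, adjusted p = 0.0152), each to a mean under the floor, against which they were at least 1.07-fold and 1.1-fold lower. Without the doubted libraries Slc47a1 was at -0.60 (adjusted p = 0.0326). The first count of 1 became 0 without EB WT 2 and 2 without ESC WT 1. The second became 0 without ESC HP1αKO 2 or either EB HP1αKO library, 2 without either ESC WT library and 3 without both doubted ESC libraries.

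Of 7 noncoding RNAs of other imprinted clusters, Meg3 and Rian, both from the Dlk1-Dio3 cluster, had a row. Meg3 lay at 9.73 and 9.31 in EB WT, 6.27 and 5.61 in EB HP1αKO, and 10.00 and 10.32 in EB HP1βKO, and Rian at 6.62 and 6.33, 3.30 and 3.10, and 6.70 and 7.19. Both thus had their lowest EB values in HP1αKO, as Airn did, but their EB HP1βKO values were not below EB WT. Against EB WT the HP1αKO difference was -3.57 ± 1.24 for Meg3 (adjusted p = 0.38) and -3.27 ± 0.86 for Rian (adjusted p = 0.171), and neither passed. In ESCs, where Airn was under the floor throughout, Meg3 was 8.93 and 5.62 in WT, 5.28 and 9.36 in HP1αKO, and 9.37 and 9.52 in HP1βKO, low in ESC WT 2 and ESC HP1αKO 1 as Cbx5 was. The Rian mean was 6.94 in EB HP1βKO and 3.20 in EB HP1αKO, the latter under the floor. Rian was thus at least 2.73-fold higher in EB HP1βKO (limma, adjusted p = 0.0468), where 3.73% of all genes passed. That call was lost with the replicate block, and without any 1 of the EB libraries or of the ESC HP1βKO libraries. It held, and Meg3 passed too, without any 1 of the ESC WT or ESC HP1αKO libraries or without both doubted ones. More of all genes passed in those latter settings as well.

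The 5 genes most like Airn across the 12 arrays, by Pearson correlation of log2 signals, were Rfx6 (r = 0.984), a transcription factor of gut and pancreas, Slc13a4 (0.977), a sulfate transporter, Prss12 (0.97), a serine protease, Amer1 (0.969), a regulator of Wnt signaling, and Zfpm1 (0.967), a cofactor of GATA factors. Over the 6 EB arrays their correlations with Airn were 0.989, 0.921, 0.954, 0.953 and 0.995. Rfx6 had means of 6.68 in EB WT, 6.17 in EB HP1βKO and 4.797 in EB HP1αKO, the last under the floor, and of 3.20 to 4.06 in ESCs. The 5 most like Igf2r were Pgf (0.988), a growth factor of the VEGF family, Ndufa3 (0.987), a subunit of respiratory complex I, Hbb-y (0.987), an embryonic globin, Cd93 (0.986), a receptor of endothelial cells, and Mcrip1 (0.985), and over the 6 EB arrays these gave 0.947, 0.928, 0.941, 0.937 and 0.778. Pgf had means of 6.37 in EB WT, 7.11 in EB HP1αKO and 6.83 in EB HP1βKO. All of these correlations are taken over arrays that fall into ESC and EB clusters and share groups of 2 replicates, and they are given as a description with no test. The 6 EB arrays were among the 12 by which the genes were chosen, so high values over them were partly built in. Airn was under the floor in all ESC groups and in EB HP1αKO.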

How the data were processed

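Total RNA of 12 samples (6 groups, 2 arrays each) had been hybridised to single-channel arrays. The authors processed the scans with Affymetrix Expression Console by robust multi-array average (RMA), per the labels, and deposited log2 signals, which were used as deposited. The sources used here name no version. The study's methods name an exon array, whereas the row identifiers are those of the Mouse Gene 1.0 ST annotation. Airn and Igf2r overlap on opposite strands, and the sources used here do not say which strand their rows read. Of 35556 rows, 21789 carried 1 gene symbol, 1621 several and 12146 none. Of the first, 21698 were matched to RefSeq by gene number, with no symbol changed. The row with the highest mean was kept per gene, and 10880 of 19938 genes exceeded the signal floor of 45 on at least 1 array. The number of arrays limits the precision.

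The tests used limma 3.58.1 under R 4.3.3 (a mean per group on all 12 arrays, 6 residual degrees of freedom, empirical Bayes, Benjamini-Hochberg adjustment within each comparison, threshold 0.05). The procedure was run on simulated data in which a gene had the same spread in every group. On these arrays the ESC replicates were further apart than the EB replicates, which the simulation does not cover. Where a group was under the floor on every array, a fold is a bound: the brighter mean against the floor. The members and all gene lists were chosen with earlier results of these data known. No p is given for any member in EB HP1αKO against EB WT, nor for Airn where EB WT or EB HP1αKO libraries enter, since these served to pick the genes. None is given for Airn in the other comparisons either, as they rest on ESC signals under the floor. Named genes are the members, the targeted genes, the largest list members that passed (at most 6 per list and comparison), and the 5 genes best correlated with Airn and with Igf2r. Plg and Mas1 were named for their place beside the cluster, and Igf2, Igf1r, Meg3 and Rian also where they did not pass, after their values were seen. Same-number replicates deviated together in ESCs (their replicate differences correlated at 0.401, 0.497 and 0.3) and not in EBs (0.112, -0.454 and -0.0921), so a replicate block was an alternative. The other alternatives were no floor, a floor of 100, centring on array medians, the mean of a gene's rows, fits on fewer arrays, array weights, a variance trend, leaving out the 2 doubted ESC libraries, and leaving out each library.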

Additional observations from a re-analysis of the deposited data

How the results depend on the processing

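Of 280 tested values of Airn and Igf2r under the alternatives, 276 kept their direction where called and their side of the threshold. Those of Airn in EB HP1βKO against ESC HP1βKO (21 settings) had to differ, as said above. Those of Airn between ESC groups were taken at signals under the floor. The tally is therefore read for Igf2r only. The exceptions were all of Igf2r in EB HP1βKO against EB WT, whose difference of 0.67 passed with array weights (adjusted p = 0.00277), without the ESC WT 2 and ESC HP1αKO 2 libraries (adjusted p = 0.00603), on the 6 EB arrays (adjusted p = 0.00159) and on the 4 arrays of the 2 groups (adjusted p = 0.00579), but not in the other settings, with adjusted p up to 0.559. The first 3 of these fits give the ESC arrays, whose replicates differ more, less or no weight, and the last holds no ESC array. With the replicate block, which follows the pairing seen in ESCs, the difference was 0.67 with adjusted p = 0.0799, and the block changed no call of Airn or Igf2r. It moved the IGF genes called in that comparison from 2 to 5 of the 11 tested, and with it 4.65% of all genes passed. Leaving out 1 library gave 0.64 to 0.69 there. Values without a test moved by more than 1 replicate SD with centring, to 3.59 for Airn in EB WT against ESC WT and 1.18 in EB HP1αKO against ESC HP1αKO. Without the 2 doubted libraries the difference of the HP1αKO effect on Airn between states was -2.26 in place of -2.40. That of the HP1βKO effect was -1.47, and -1.71 to -1.23 with 1 library left out. All of these values rest on ESC signals under the floor and are not resolved.

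Counts of genes called moved by more than 1.5 times in every comparison: from 353 to between 96 and 2043 for EB HP1βKO against EB WT, from 135 to between 27 and 1691 for EB HP1αKO against EB WT, from 25 to between 12 and 161 for the state difference of the HP1αKO effect, from 406 to between 154 and 2302 between the EB knockouts, from 3941 to 1911 at the lowest for EB WT against ESC WT, from 4522 to 2566 for HP1αKO and from 4038 to 2352 for HP1βKO between states, from 141 to between 54 and 628 for the state difference of the HP1βKO effect, and from 0, 0 and 1 to 68, 153 and 43 at the most in the ESC comparisons. Of 1645 counts of list genes under the alternatives, 1454 stayed within 1.5 times the first count. Levels of Airn under 5.49 and of Slc22a2 are close to background, so differences there are not resolved.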
